A study of Homo sapiens with 8 samples.

Results

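Islands of histone H3 trimethylated at lysine 27 (H3K27me3) and at lysine 4 (H3K4me3) were examined over 10 imprinted genes in PC9 cells, which are an established line of human lung adenocarcinoma. The genes were IGF2, DLK1, GRB10, PLAGL1, PEG3, NDN, PEG10, SGCE, MEST and SNRPN, out of 20098 protein-coding genes on chromosomes 1 to 22 and X. They were taken from a list of names and not from measured values, but earlier results of these data were known by then. For each gene, the gene span plus 2000 bp upstream was used, in GRCh37 coordinates. The study was designed to find out whether D. melanogaster chromatin, added to each reaction as a spike-in, changes what ChIP-seq shows after inhibition of EZH2. Cells had received DMSO, the vehicle, or 1 μM GSK126, a small molecule inhibitor of EZH2, for 5 days, and there were 2 libraries for each treatment and mark, 8 in all. A bulk culture of a single cancer line is used in every group, so islands average over cells, and the lists hold no information on alleles. The question asked for each gene was how much of it was covered by islands with GSK126 compared to DMSO within a replicate.

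Imprinted genes are expressed mainly from the allele inherited from a given parent, and they lie in clusters controlled by regions whose DNA methylation differs between the parental alleles. EZH2 is the catalytic subunit of PRC2, which trimethylates H3K27 at repressed genes, whereas H3K4me3 marks active promoters. At imprinted promoters, H3K4me3 is known to mark the unmethylated allele and H3K27me3 is often found on the silent one, so that islands of both marks at a single position can come from different alleles, from different cells or from the same nucleosomes, and cannot be told apart here.

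The authors deposited lists of SICER islands, which are stretches of enriched 200 bp windows, together with a score for each island. There were 14 lists in 2 normalizations. In the standard lists, both libraries of a replicate had been reduced to the same number of human tags, and in the spike-in lists the tags of the GSK126 library had been reduced according to D. melanogaster tags. The tag density read from the island scores was 1.65 and 2.33 tags per window in the H3K27me3 DMSO spike-in lists of replicates 1 and 2, and 0.382 and 0.455 with GSK126, or 23.1% and 19.6% of DMSO. Weak islands are harder to detect with fewer tags, and in the spike-in lists a lower density of the mark and a lower depth cannot be told apart for a single island. The H3K4me3 spike-in lists differed less, with 83.6% and 86.9% of the DMSO density, but replicate 2 was shallow (0.302 tags per window, compared to 1.77 in replicate 1). The smallest p-value that an exact sign-flip test allows with 2 replicate pairs is 0.5. Therefore no p-value is given, and a gene is called lower or higher only when both replicates moved in the same direction.

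Sequences upstream of start sites are shown for the genes whose promoters the results turn on. These are genes with alternative starts that differ in marks (MEST, GRB10 and PLAGL1), NDN and SNRPN. The only annotated start of NDN lost its islands of H3K27me3 in the spike-in lists, as did the upstream starts of GRB10 and PLAGL1. SNRPN held neither mark. The RefSeq promoter table holds 20 start sites of these 5 members, and IGF2, DLK1, PEG3, PEG10 and SGCE are not among its entries. Each sequence is the 250 bases before a RefSeq start, read 5′ to 3′ on the strand of the gene and located in GRCh37 by an exact match. Capitals mark TGCCGC or its reverse complement GCGGCA, the motif bound by ZFP57, a zinc finger protein that maintains methylation imprints.
MEST upstream start, chr7:130125766-130126015, plus strand: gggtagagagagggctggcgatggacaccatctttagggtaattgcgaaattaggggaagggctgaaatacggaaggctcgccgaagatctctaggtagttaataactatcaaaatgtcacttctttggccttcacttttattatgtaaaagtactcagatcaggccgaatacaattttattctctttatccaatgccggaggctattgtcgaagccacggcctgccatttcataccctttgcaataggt
MEST canonical start, chr7:130131676-130131925, plus strand: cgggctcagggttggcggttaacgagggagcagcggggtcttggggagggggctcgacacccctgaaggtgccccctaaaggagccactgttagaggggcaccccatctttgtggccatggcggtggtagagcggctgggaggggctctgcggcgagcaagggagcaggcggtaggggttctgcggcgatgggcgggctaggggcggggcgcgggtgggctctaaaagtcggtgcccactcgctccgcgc
GRB10 upstream start, chr7:50861151-50861400, minus strand: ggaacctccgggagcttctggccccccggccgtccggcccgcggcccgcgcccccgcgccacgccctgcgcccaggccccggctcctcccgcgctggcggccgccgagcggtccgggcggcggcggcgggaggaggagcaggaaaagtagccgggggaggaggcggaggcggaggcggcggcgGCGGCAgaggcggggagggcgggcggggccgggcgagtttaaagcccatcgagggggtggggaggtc
PLAGL1 upstream start, chr6:144385737-144385986, minus strand: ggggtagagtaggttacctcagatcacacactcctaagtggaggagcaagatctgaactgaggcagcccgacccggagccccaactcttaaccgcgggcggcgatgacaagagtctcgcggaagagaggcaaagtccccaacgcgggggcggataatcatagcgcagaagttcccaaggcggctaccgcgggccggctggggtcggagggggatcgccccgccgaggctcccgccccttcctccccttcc
PLAGL1 canonical start, chr6:144329397-144329646, minus strand: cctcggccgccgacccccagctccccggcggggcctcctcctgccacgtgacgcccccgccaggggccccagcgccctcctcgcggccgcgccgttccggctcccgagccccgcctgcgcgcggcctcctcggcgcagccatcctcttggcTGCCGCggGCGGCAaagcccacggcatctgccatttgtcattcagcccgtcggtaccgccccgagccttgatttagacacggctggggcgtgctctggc
NDN start, chr15:23932453-23932702, minus strand: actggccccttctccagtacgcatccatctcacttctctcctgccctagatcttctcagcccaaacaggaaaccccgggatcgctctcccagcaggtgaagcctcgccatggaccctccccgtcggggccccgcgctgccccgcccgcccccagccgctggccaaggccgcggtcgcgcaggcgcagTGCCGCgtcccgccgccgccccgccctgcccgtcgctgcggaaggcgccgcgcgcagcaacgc
SNRPN canonical start, chr15:25199884-25200133, plus strand: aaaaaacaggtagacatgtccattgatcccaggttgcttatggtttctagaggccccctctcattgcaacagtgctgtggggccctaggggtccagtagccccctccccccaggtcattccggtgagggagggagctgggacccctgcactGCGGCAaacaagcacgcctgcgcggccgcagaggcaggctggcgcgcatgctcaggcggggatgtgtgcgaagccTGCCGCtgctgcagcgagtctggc
The number of CpG dinucleotides in these 250 bases was 9 at the MEST upstream start, 20 at its canonical start and 37 at the GRB10 upstream start. It was 21 and 32 at the upstream and canonical starts of PLAGL1, 30 at NDN and 12 at SNRPN. The canonical start of GRB10, whose sequence is not shown, had 19. The median over 34788 distinct promoters of the table was 11, with quartiles of 3 and 23. TGCCGC on either strand was found 2 times at the PLAGL1 canonical start, 2 times at SNRPN, and 1 time each at the GRB10 upstream start and NDN. Among the starts not shown, it was found 1 time each at MEST (130126188) and SNRPN (25201447), and not at the GRB10 canonical start. It occurs in 12.8% of all promoters of that length, a share that was not matched for CpG number. GCCATNTT, bound by YY1, occurs in 3.86% of all promoters and was not found in the sequences shown.

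With DMSO, the members differed in the mark they carried. DLK1, PEG3 and NDN carried H3K27me3 alone, and PEG10, SGCE and MEST carried H3K4me3 alone. IGF2 carried H3K27me3, with a 1 kb H3K4me3 island inside it in each replicate. GRB10 and PLAGL1 carried both marks at their starts, and SNRPN carried neither mark in any list. With spike-in normalization, 6 of 10 members had an H3K27me3 island in the DMSO list of either replicate, and 4 and 2 had one with GSK126 in replicates 1 and 2. With DMSO, 6 of 10 members had an H3K4me3 island in each replicate, and 5 of 10 had one in every list with GSK126. The shares of all genes were 71.6% and 68.2% with DMSO. With GSK126 they were 71.1% and 68.1% in the standard lists, and 70.4% and 67.6% in the spike-in lists. PEG10, SGCE, MEST and SNRPN were covered by no H3K27me3 island in any list, and DLK1, PEG3, NDN and SNRPN by no H3K4me3 island.

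**Figure D1:**
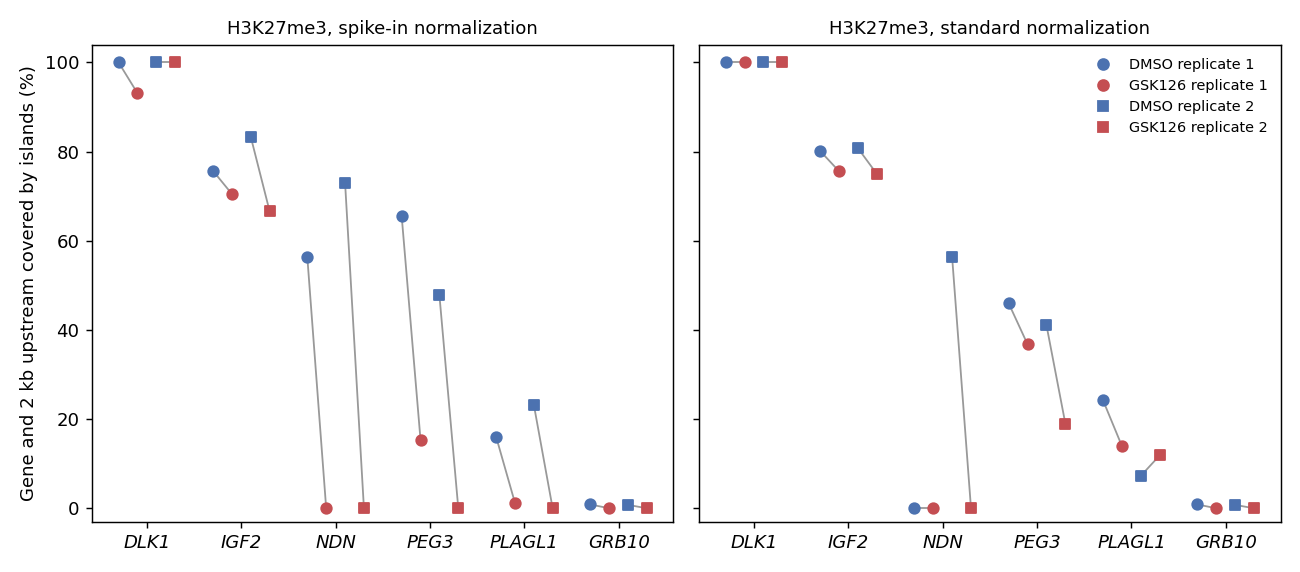
Share of each gene and its upstream 2 kb covered by H3K27me3 islands (%), for the 6 members with an island. Each point is 1 list, blue for DMSO and red for GSK126, circles for replicate 1 and squares for replicate 2, and a line joins the lists of a replicate. In the spike-in lists (left) NDN went to 0 in both replicates while DLK1 kept at least 93.1%, and in the standard lists (right) DLK1 stayed at 100%.

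DLK1, a transmembrane protein related to Notch ligands, was the most completely covered member. It lies on chromosome 14 from 101192042 to 101204561 on the plus strand. H3K27me3 islands of the spike-in lists covered 100% of the gene and its upstream 2000 bp with DMSO in both replicates, and 93.1% and 100% with GSK126 in replicates 1 and 2. Coverage was 100% in each of the 4 standard lists. In DMSO replicate 1, a single island of 30.4 kb from 101177201 to 101207600 spanned the whole gene, and its score was above that of 93.6% of the islands of the standard list. The gap in the GSK126 spike-in list of replicate 1 lay between 0.558 kb and 1.56 kb downstream of the gene start. DLK1 was therefore not called lower in either normalization. No H3K4me3 island was found at DLK1.

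IGF2 encodes a fetal growth factor and lies on chromosome 11 from 2150342 to 2179621 on the minus strand. In the spike-in lists, H3K27me3 islands covered 75.7% and 83.4% of its window in the DMSO lists of replicates 1 and 2, and 70.5% and 66.7% in the GSK126 lists. The change was −10.9 ± 8.14 percentage points (SD, n = 2), and every DMSO list was above every GSK126 list. Coverage in the standard lists was 80.2% and 80.8% with DMSO and 75.6% and 75.1% with GSK126, a change of −5.15 ± 0.857 percentage points that was larger than the spread between replicates. Over the gene span alone, IGF2 was not called lower in either normalization: coverage in replicate 1 was 74.0% with DMSO and 75.3% with GSK126 in the spike-in lists, and 78.8% and 80.2% in the standard lists, whereas it was lower in replicate 2. The 2000 bp upstream thus decide the direction in replicate 1. The islands of the DMSO spike-in lists reached past the gene start and across the whole upstream 2000 bp, towards INS, which shares 0.613 kb with the window. With GSK126, the first island of the spike-in lists began 0.621 kb and 1.82 kb downstream of the start, but in the standard lists an island still overlapped the start in both replicates. At the 3′ end, an island of 11.6 to 12.4 kb was found in all 4 spike-in lists.

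IGF2 was also the only member that lost all of its H3K4me3 islands. With DMSO, an H3K4me3 island of 1 kb was found in each replicate, at 2158401 to 2159400 in replicate 1 and at 2158801 to 2159800 in replicate 2, inside the H3K27me3 island at the 3′ end. No H3K4me3 island was found at IGF2 with GSK126 in either normalization. The scores of this island were 53.4 and 32.9, close to the lowest scores of their lists (31.1 and 22.6), and were above those of 15.97% and 11.97% of islands. The H3K4me3 island lay 1.22 to 2.22 kb downstream of the canonical transcript start in replicate 1 and 0.819 to 1.82 kb in replicate 2. Among protein-coding genes with an H3K4me3 island in both DMSO lists, 0.344% (47 of 13669) had none in either GSK126 spike-in list and 0.176% (24 of 13669) had none in either standard list, compared to 1 of 6 members. This count rests on a single weak island.

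GRB10 is an adaptor protein that binds the insulin receptor and dampens its signalling. It lies on chromosome 7 from 50657760 to 50861159 on the minus strand, and its window is 205.4 kb long. H3K27me3 was found upstream of the outermost start and nowhere else in the window. With DMSO, an island of 3.4 kb in replicate 1 and 3.6 kb in replicate 2 of the spike-in lists began 0.242 kb and 0.442 kb upstream of that start, and covered 1759 bp and 1559 bp of the window, or 0.856% and 0.759%. With GSK126, no H3K27me3 island was found in the window in either replicate, with either normalization. The change was −0.808 ± 0.0689 percentage points in both normalizations. The score of the DMSO island in the standard lists was above that of 5.22% of islands in replicate 1 and 18.7% in replicate 2, so it was a weak island of its list.

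At the same start of GRB10, H3K4me3 was retained. There were 4 H3K4me3 islands in the window with DMSO in each replicate, and together they covered 12959 bp in replicate 1 and 7200 bp in replicate 2. With GSK126 they covered 11359 bp and 5400 bp in the standard lists, and 12159 bp and 5400 bp in the spike-in lists. Coverage was thus lower in both replicates with either normalization, by −0.828 ± 0.0689 and −0.633 ± 0.344 percentage points. The largest island of DMSO replicate 1 spanned the upstream start from 50858201 to 50864200, whereas a smaller one lay at the canonical start, 10.6 kb further downstream. All 4 positions held an island in every standard list of GSK126.

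PLAGL1 encodes a zinc finger transcription factor that restrains proliferation. It lies on chromosome 6 from 144261437 to 144385736 on the minus strand, and its canonical transcript starts 56.3 kb inside the gene, where the non-coding HYMAI shares 5.35 kb with the window. Of its window, H3K27me3 islands covered 16.1% and 23.3% with DMSO, and 1.27% and 0% with GSK126 in the spike-in lists. The change was −19.1 ± 5.97 percentage points, larger than the spread between replicates. With DMSO there were 6 islands in replicate 1 and 7 in replicate 2, spread over both starts and the 3′ end, whereas with GSK126 the only island left was one of 1.6 kb in replicate 1, over the canonical start. The replicates disagreed in the standard lists, with 24.2% and 7.28% in DMSO compared to 13.9% and 11.9% in GSK126, and the change of −2.83 ± 10.5 percentage points was smaller than the spread.

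The starts of PLAGL1 differed in the standard lists. At the canonical start, an H3K27me3 island was found in all 4 standard lists, with scores of 90.2 and 53.4 in DMSO and 120 and 109 in GSK126. At the upstream start an H3K27me3 island was found with DMSO in replicate 1 only, and with GSK126 in neither replicate. Both starts held an H3K4me3 island in every list. These H3K4me3 islands covered 5.4 kb and 3 kb of PLAGL1 with DMSO, 5.6 kb and 2.6 kb with GSK126 in the standard lists, and 5.8 kb and 2.6 kb in the spike-in lists. The replicates moved in opposite directions, so PLAGL1 was called neither lower nor higher for H3K4me3 coverage.

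**Figure D2:**
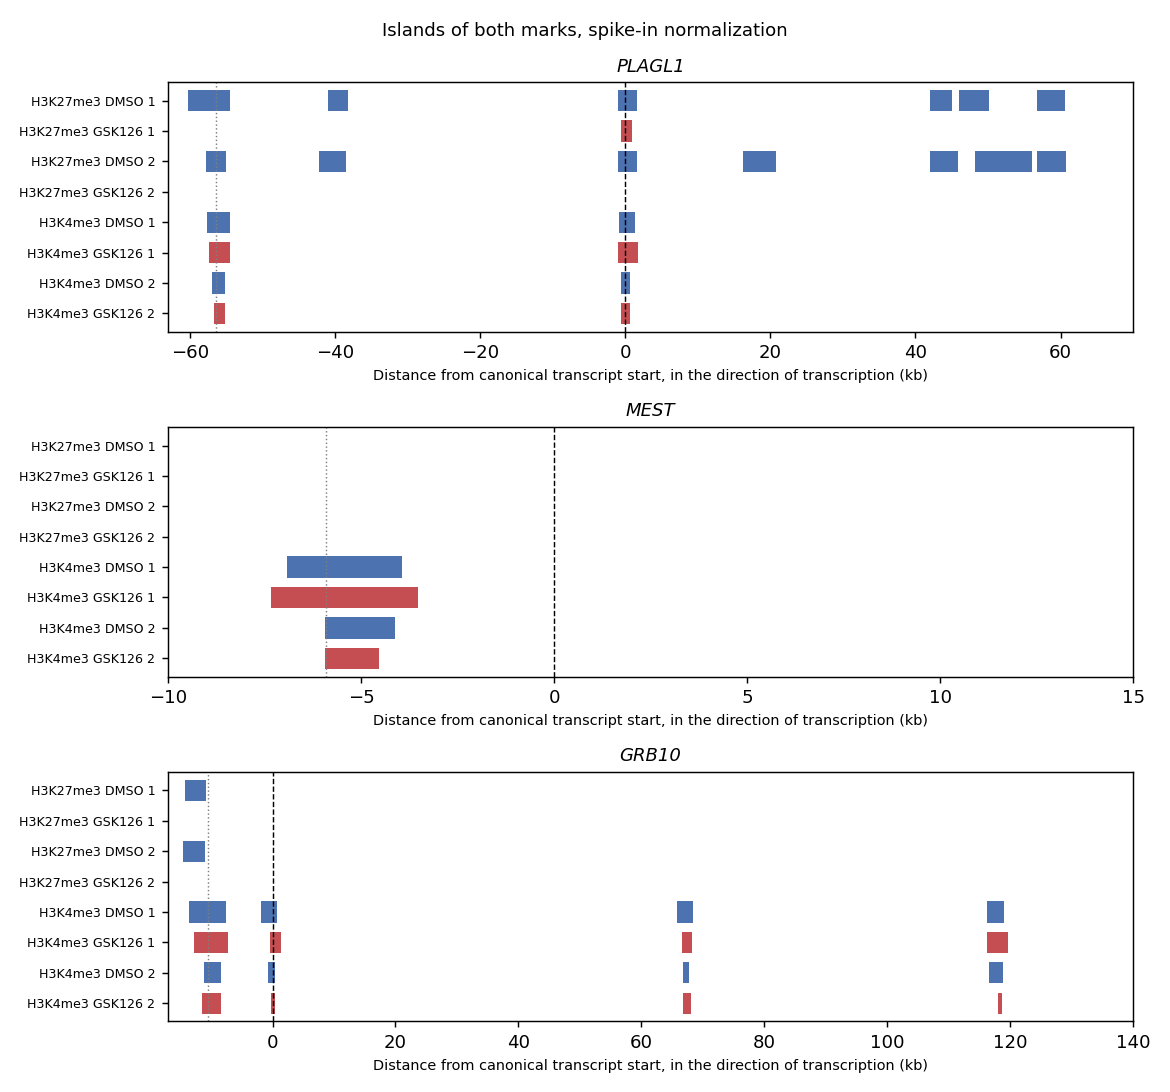
Islands at PLAGL1, MEST and GRB10 in the spike-in lists of both marks, by distance from the canonical transcript start (kb, dashed line). The dotted line marks the outermost start and each row is 1 list, blue for DMSO and red for GSK126. At PLAGL1 and GRB10 the H3K4me3 islands remained while all but 1 H3K27me3 island was absent with GSK126, and at MEST the only island lay at the outermost start.

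PEG3, a zinc finger protein expressed from the paternal allele, lies on chromosome 19 from 57321445 to 57352096 on the minus strand, wholly inside the window of ZIM2, so that its islands cannot be assigned to either gene. In the spike-in lists, H3K27me3 islands covered 65.5% and 47.8% of its window with DMSO, and 15.3% and 0% with GSK126. The change was −49.0 ± 1.73 percentage points, the second largest among the members after NDN. The standard lists gave 45.9% and 41.0% for DMSO, compared to 36.8% and 18.99% for GSK126, a change of −15.6 ± 9.10 percentage points. All DMSO lists were above all GSK126 lists in either normalization.

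The islands of PEG3 lay in the body of the gene and not at its start. The island nearest to the canonical start was 13.9 kb away in the standard lists with DMSO in both replicates, and 14.3 kb and 15.9 kb with GSK126. An island overlapped the start of PEG3 only in DMSO replicate 1 of the spike-in lists. The islands of PEG3 in the standard list of DMSO replicate 1 ran from 57322201 to 57330800 and from 57331801 to 57338200. In replicate 2 a single island ran from 57324801 to 57338200. With GSK126 in replicate 2, what remained were islands of 4.4 kb and 1.8 kb within the same stretch. The nearest H3K4me3 island was at least 242 kb from the start of PEG3 in every list.

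NDN encodes necdin, a member of the MAGE family expressed in neurons, and is a short gene on chromosome 15 from 23930547 to 23932452 on the minus strand. In the spike-in lists, H3K27me3 islands covered 56.3% and 73.1% of its 3.91 kb window with DMSO, and none with GSK126 in either replicate. The change was −64.7 ± 11.8 percentage points. The DMSO islands spanned the only annotated start, and ran to 1.45 kb downstream of it in replicate 1 and to 3.65 kb in replicate 2, past the end of the gene. Of the standard lists, only that of DMSO replicate 2 held an island, which covered 56.3%, and NDN was not called lower. The island of NDN had a score of 67.8 in the spike-in list of DMSO replicate 1, where the lowest score was 41.3, and in replicates 1 and 2 it was above 30.5% and 46.6% of the islands. No H3K4me3 island was found within 118 kb of NDN.

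**Figure D3:**
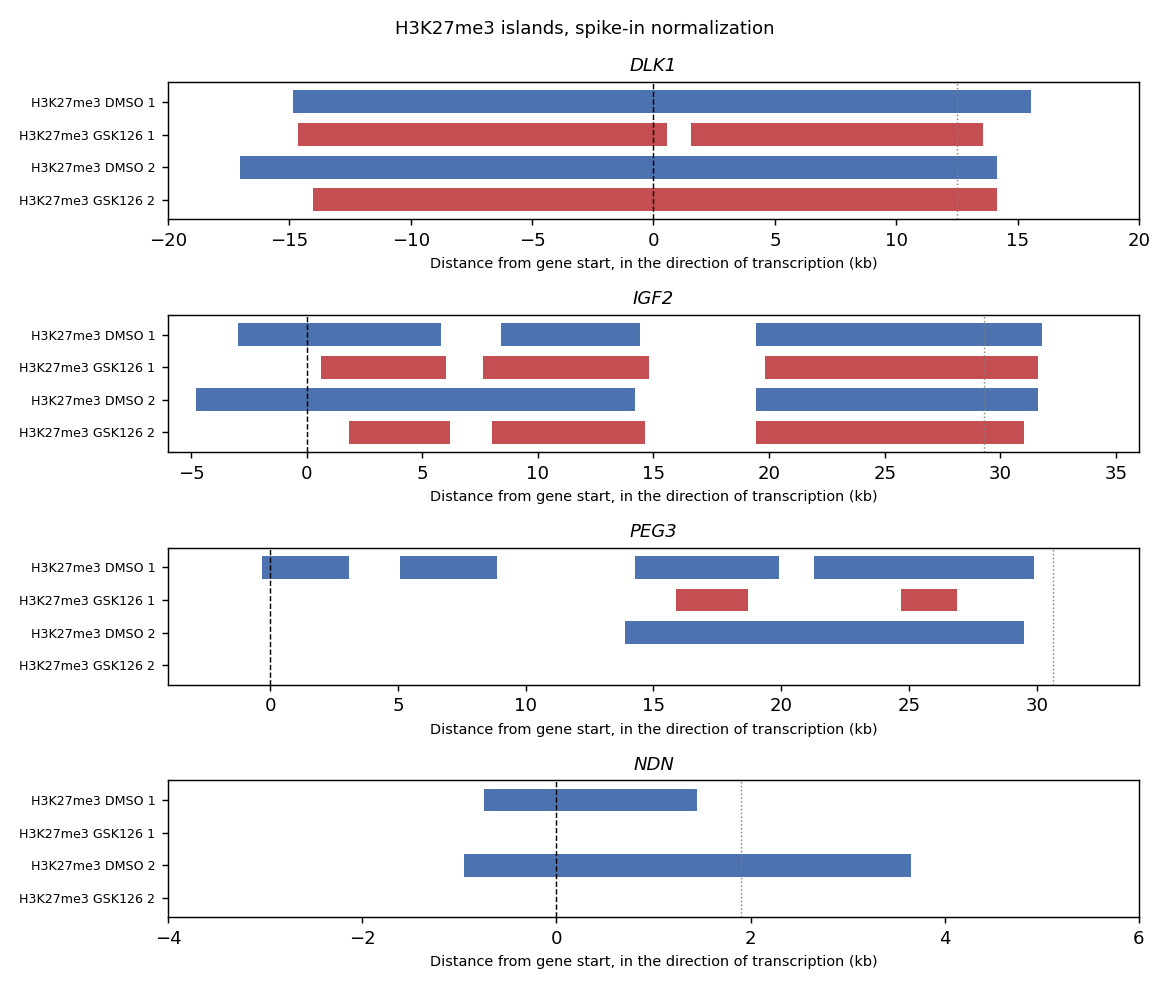
H3K27me3 islands at DLK1, IGF2, PEG3 and NDN in the spike-in lists, by distance from the gene start in the direction of transcription (kb). The dashed line marks the gene start, the dotted line the gene end, and each row is 1 list, blue for DMSO and red for GSK126. The domain at DLK1 and the 3′ island of IGF2 were found in all 4 lists, whereas PEG3 and NDN held none with GSK126 in replicate 2.

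PEG10 and SGCE are transcribed in opposite directions from a shared start region on chromosome 7. PEG10, a gene derived from a retrotransposon, lies from 94285637 to 94299007 on the plus strand, and SGCE, which encodes epsilon-sarcoglycan, from 94153516 to 94285884 on the minus strand. Their windows share 4.25 kb, and a single H3K4me3 island in this stretch was the only island of either gene, so the pair counts as 1 measurement. The island was 3.8 kb and 3.4 kb long with DMSO in replicates 1 and 2. With GSK126, it was 3.8 kb and 2.8 kb long in both normalizations. Length was thus equal in replicate 1 and shorter in replicate 2, and neither gene was called lower. The score of the DMSO island in replicate 1 was above 70.9% of its list. No H3K27me3 island was found over these genes with either treatment.

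MEST, a member of the alpha/beta hydrolase family, lies on chromosome 7 from 130126012 to 130146306 on the plus strand. Its canonical transcript starts 5.91 kb inside the gene, and at this start neither mark was found in any list: the nearest H3K4me3 island was 3.53 to 4.53 kb away. Instead, H3K4me3 was found at the upstream start, where MESTIT1, a non-coding gene on the other strand, shares 6.99 kb with the window of MEST. The island measured 3 kb and 1.8 kb with DMSO, 3.8 kb and 1.8 kb with GSK126 in the standard lists, and 3.8 kb and 1.4 kb in the spike-in lists. The DMSO island of replicate 1, from 130125001 to 130128000, had a score of 2719, the highest of all H3K4me3 islands at the members in that list. Another RefSeq start of MEST at 130126188 lies in the same H3K4me3 island as the upstream start in every list. It has 20 CpG dinucleotides in its 250 upstream bases, as many as the canonical start. A relation between CpG number and the mark was not tested.

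SNRPN encodes a protein of the spliceosome, and its locus holds the imprinting centre of its cluster. It lies on chromosome 15 from 25068784 to 25223870 on the plus strand, with SNURF inside its window. No island of either mark was found over its 157 kb in any list, and none of its 10 annotated starts had an island within 1000 bp. The island nearest to the canonical start of SNRPN was an H3K27me3 island 214 kb and 223 kb away in the DMSO spike-in lists, and the nearest H3K4me3 island was 481 to 483 kb away. The non-coding SNHG14 shares 2.14 kb with the window of SNRPN and held H3K27me3 islands outside it. Coverage of SNHG14 in the standard lists was 10.8% and 11.4% with DMSO, and 3.25% and 0% with GSK126. An absent island does not show absence of the mark, since reads that do not map uniquely had been removed and enrichment below the threshold is not listed.

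**Figure D4:**
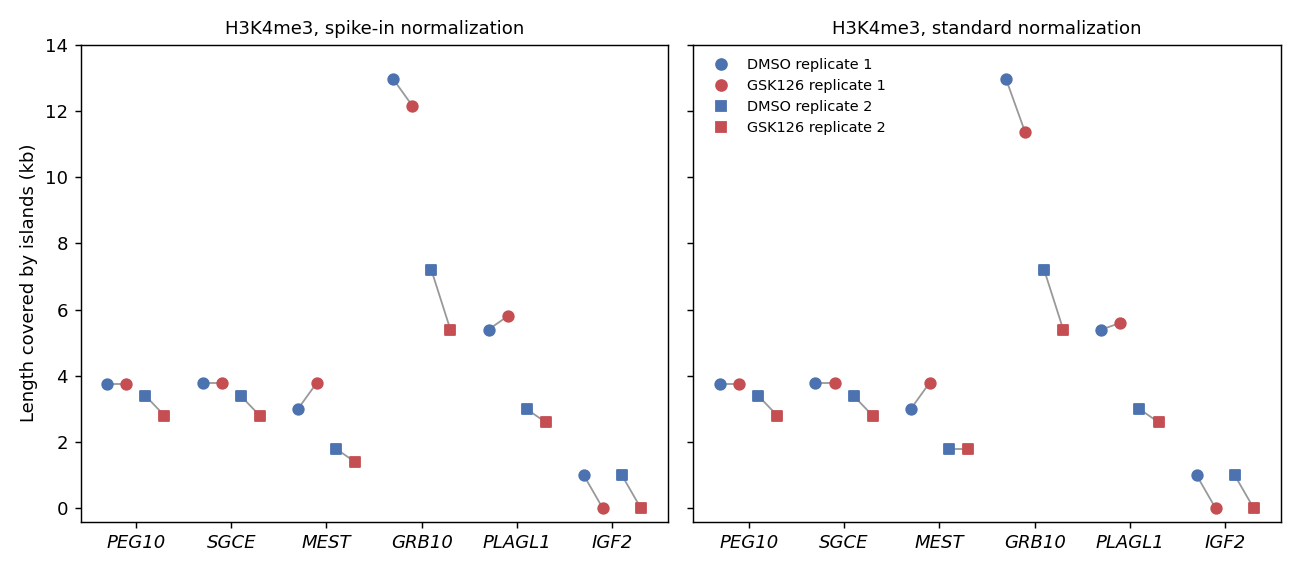
Length covered by H3K4me3 islands (kb) at the 6 members with an island, in the spike-in lists (left) and standard lists (right). Blue points are DMSO and red points GSK126, circles replicate 1 and squares replicate 2, and each line joins the lists of a replicate. PEG10 and SGCE show the same island, GRB10 was lower in both replicates and IGF2 went from 1 kb to 0.

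The changes at the members were set beside those of all protein-coding genes with an island. For H3K27me3 in the spike-in lists, 5 of 6 members were lower in both replicates and 0 were higher, whereas among 6456 genes 77.4% were lower and 0.356% were higher. At equal tag number, in the standard lists, 3 of 6 members were lower (IGF2, PEG3 and GRB10) and 0 were higher, compared to 46.8% and 5.64% of 6133 genes. The median change was −15.0 percentage points over the 6 members and −15.5 over all genes in the spike-in lists, and −3.99 and −4.14 in the standard lists. The share and the size of H3K27me3 changes at the members were thus close to those of all genes. Of the members with an H3K27me3 island in both DMSO spike-in lists, 2 of 6 had none with GSK126 in either replicate (GRB10 and NDN), compared to 32% of all genes (1781 of 5573). The corresponding counts in the standard lists were 1 of 5 (GRB10) and 9.10%.

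For H3K4me3, 2 of 6 members with an island were lower in both replicates (IGF2 and GRB10) and 0 were higher, in either normalization. PEG10 and SGCE enter this count and the median separately, although they share a single island. The share of all genes that were lower was 35.0% in the spike-in lists and 35.5% in the standard lists, and the share that were higher was 7.95% and 6.81%. The median change was −0.428 percentage points over the members and −0.564 over all genes in the spike-in lists, compared to −0.525 and −0.642 in the standard lists. H3K4me3 coverage at the members therefore changed about as often as at other genes.

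Marks within 1000 bp of the gene start were compared in the spike-in lists. With DMSO, both marks were found in both replicates at 2 of 10 members (GRB10 and PLAGL1), compared to 4.87% of protein-coding genes. H3K27me3 alone was found at 3 members (IGF2, DLK1 and NDN), compared to 12.9%, and H3K4me3 alone at 3 (PEG10, SGCE and MEST), compared to 54.5%. Of the remaining members, SNRPN had neither mark, and PEG3 had H3K27me3 in replicate 1 only. With GSK126, 0 members and 2.21% of genes had both marks. GRB10 and PLAGL1 had then joined the members with H3K4me3 alone, DLK1 was the only member with H3K27me3 in both replicates, IGF2 had H3K27me3 in replicate 1 only, and NDN had neither mark. H3K4me3 alone was thus found at 5 of 10 members and 56.7% of genes, and H3K27me3 alone at 1 member and 6.74% of genes. PEG10 and SGCE enter these counts separately, although they share a single island. In the standard lists, GRB10 alone had both marks at the gene start with DMSO, compared to 4.39% of genes. No member had both there with GSK126, compared to 3.45%. IGF2 and DLK1 had H3K27me3 alone in the standard lists with either treatment, in both replicates. For IGF2 this holds at the outermost start. Of its 10 annotated starts, 4 had an H3K4me3 island within 1000 bp with DMSO in both replicates. At the canonical start, PLAGL1 had both marks in the standard lists with either treatment, in both replicates, and GRB10 had H3K4me3 alone.

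The length over which both marks overlapped was shorter with GSK126 in the spike-in lists at the 3 members that had such a stretch. No share over all genes is given for this overlap, so the count does not set the members apart. In the same lists, H3K27me3 coverage was lower in both replicates at 77.4% of all genes with an island. At PLAGL1 the overlap was 5.4 kb and 3 kb with DMSO, and 1.6 kb and 0 kb with GSK126 in the spike-in lists. The standard lists gave 5.4 kb and 1.2 kb with DMSO, compared to 2.2 kb and 1.2 kb, so that replicate 2 did not differ. At GRB10 it was 1.76 kb and 0.2 kb with DMSO, and at IGF2 1 kb in each replicate. With GSK126 it was 0 in every list at both genes, at GRB10 with no H3K27me3 island left and at IGF2 with no H3K4me3 island left.

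Whether an island was present does not show how strong it was. The summed island score was therefore compared in the standard lists, where both libraries of a replicate had the same tag density (1.36 and 1.55 tags per window for H3K27me3). In these lists a higher score means stronger or longer enrichment within the islands of the gene at equal tag number. It does not give the part of the tags that fell on the gene. Nor does it mean that the amount of H3K27me3 was higher in the cells. The score of DLK1 was 570 and 722 with DMSO and 1073 and 2128 with GSK126 in replicates 1 and 2. Both pairs were higher with GSK126, and the log2 ratio was 1.24 ± 0.46 (SD, n = 2). At IGF2 the score was 1103 and 1548 with DMSO and 1726 and 2949 with GSK126, a log2 ratio of 0.79 ± 0.20. IGF2 was thus higher by score although its covered share was lower. Within the gene, the 3′ island had a higher score with GSK126 in both replicates (1294 and 1952, compared to 823 and 989). The middle island was higher as well (626 and 1234, compared to 252 and 439). In contrast, the island over the gene start had a score of 221 and 392 with DMSO. With GSK126, that end held an island of 162 in replicate 1, and separate islands of 160 and 69.2 in replicate 2.

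At PEG3 the summed score was 483 and 532 with DMSO and 332 and 111 with GSK126. It was lower in both replicates, with a log2 ratio of −1.40 ± 1.21. The score of PLAGL1 was 510 and 172 with DMSO and 374 and 282 with GSK126, and the replicates differed in direction. GRB10 went from 28.2 and 22.3 to no island. By H3K27me3 score, 2 of 6 members were lower (PEG3 and GRB10), 2 were higher (DLK1 and IGF2) and 2 were neither, and among all genes 41.0% were lower and 28.6% were higher. The median log2 ratio was 0.46 over the 4 members with islands in all 4 lists and −0.02 over 4114 genes. The 4 members were therefore split, with DLK1 and IGF2 above and PEG3 below.

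For H3K4me3 the changes in score were smaller. At GRB10 the score was 2203 and 533 with DMSO and 2519 and 620 with GSK126, a log2 ratio of 0.21 ± 0.02. PLAGL1 was higher by 0.05 ± 0.06 on the log2 scale, a change below the spread between replicates. MEST, in contrast, had scores of 2719 and 995 with DMSO and 2608 and 889 with GSK126, and its log2 ratio was −0.11 ± 0.07. The island shared by PEG10 and SGCE was higher in replicate 1 (0.12) and lower in replicate 2 (−0.11). In all, 2 of 6 members were higher (GRB10 and PLAGL1) and 2 were lower (IGF2 and MEST), compared to 27.1% and 22.7% of all genes.

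**Figure D5:**
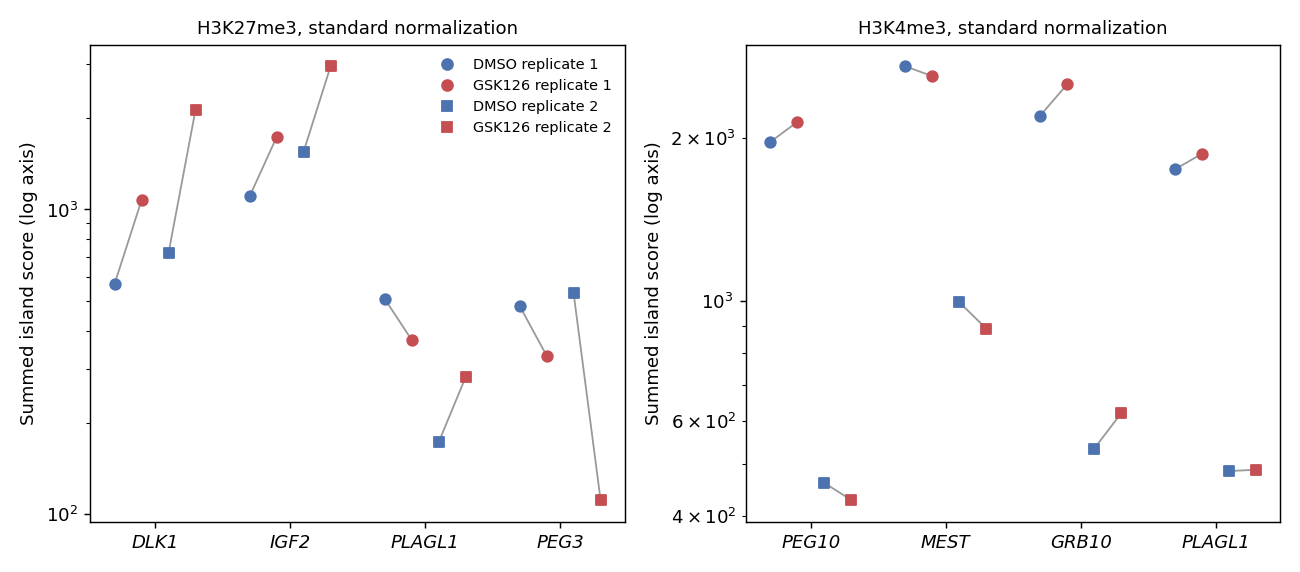
Summed island score (log axis, no unit) in the standard lists, for the members with islands in all 4 lists of H3K27me3 (left) and of H3K4me3 (right, where PEG10 stands for the island it shares with SGCE). Blue points are DMSO and red points GSK126, circles replicate 1 and squares replicate 2, and lines join the lists of a replicate. DLK1 and IGF2 were higher with GSK126 in both replicates and PEG3 was lower, with log2 ratios of 1.24, 0.79 and −1.40.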

How the data were processed

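ChIP-seq for H3K27me3 and H3K4me3 had been performed on PC9 cells with added D. melanogaster chromatin, in 2 libraries per treatment and mark. The authors aligned tags to hg19 (GRCh37), removed duplicates and tags that did not map uniquely, and removed human tags at random for each normalization. The submitters' processing notes name BWA and SAMtools 0.1.18. SICER, run on single libraries with a random background and an E-value of 1, had joined windows of 200 bp across gaps of up to 600 bp (H3K27me3) or 200 bp (H3K4me3). The unit deposited by the authors is the island score, which adds up −ln of a Poisson probability over the windows of an island and depends on the number of tags. The single H3K4me3 DMSO list of a replicate served both normalizations.

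Treatments were taken from the sample labels. These do not number replicates, and libraries were paired as in the study's list of libraries because tags had been removed within a replicate. Gene spans were taken from GENCODE (GRCh37), with 2000 bp upstream, and overlap of 1 bp counted. The score of an island that was only partly inside a window was multiplied by the share inside. Start sites were given 1000 bp on either side. The tag density behind a list was fitted to the scores of its shortest islands, with 1 or 2 windows. Python 3.11.15, NumPy 2.4.6, SciPy 1.17.1 and Matplotlib 3.10.9 were used. Coverage was tested on simulated data with an error of 0 bp over 200 windows, and the density fit with a largest error of 3.2e-06% over 5 simulated lists. Since the lists hold no counts per window, no counting interval was computed.

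The 10 members are all named. In the wider list of 46 imprinted genes and neighbours, the genes named are the 3 with the largest fall and the 3 with the largest rise of coverage in the standard lists for each mark, among genes that moved in the same direction in both replicates and as far as there were that many, and genes that overlap a member. Of the last, MIMT1 and COPG2, which overlap PEG3 and MEST, are named only here. ATP10A, H19, MEG3, CDKN1C, KLF14 and NNAT were added after their values were seen. The island named for each member is the highest-scoring of DMSO replicate 1. Members and lists were chosen with earlier results of these data known. Alternatives were a stricter score threshold (2 times the lowest score of the list), the gene span alone, 5000 bp on either side of the start, 2500 bp for marks at starts, all annotated starts, each replicate left out and no pairing, and the canonical start was added after seeing the data. Further cell lines were not analysed here.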

Additional observations from a re-analysis of the deposited data

Results flagged for a closer look

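By summed score, the marks moved in opposite directions at IGF2, which is why it is listed here. In the standard lists, its log2 ratio of summed H3K27me3 score was 0.79, higher with GSK126 in both replicates, whereas its H3K4me3 score went from 53.4 and 32.9 to no island in both. By coverage, both marks were lower at IGF2 in both replicates, and over 5000 bp on either side of the gene start the H3K27me3 score was lower as well, with a log2 ratio of −0.52. The difference between the marks was not tested.

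By score, GRB10 showed the converse. Its log2 ratio of summed H3K4me3 score in the standard lists was 0.21, higher with GSK126 in both replicates, while its H3K27me3 score went from 28.2 and 22.3 to no island in both. This difference was not tested either. The H3K4me3 coverage of GRB10 was lower in both replicates, so that its direction depends on whether length or score is read. Both results rest on 2 replicates and on an island near the threshold of its list in the mark that was lost.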

How the results depend on the processing

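Of 241 gene values compared under the alternatives, 200 moved by less than the spread between replicates, 39 moved by more and 2 reversed. Over 5000 bp on either side of the gene start, the log2 ratio of summed score was −0.52 for H3K27me3 at IGF2 and −0.15 for H3K4me3 at PLAGL1. The mean change of H3K27me3 coverage over the 10 members (−14.8 percentage points in the spike-in lists and −5.26 in the standard lists) was −20.9 and −12.0 over 5000 bp on either side of the start, and −11.0 in the spike-in lists with the stricter threshold. The members lower for H3K27me3 numbered 3 in the spike-in lists with the gene span alone or the stricter threshold, and 1 in the standard lists with the gene span alone, where IGF2 and GRB10 were not lower in either normalization. The members lower for H3K4me3 numbered 1 around the start or with no pairing, and 0 with the stricter threshold, in both normalizations. Members with a higher score numbered 1 around the start for either mark and 0 for H3K4me3 with no pairing. Members with a lower score numbered 1 for H3K27me3 with the gene span alone or the stricter threshold, and 1 for H3K4me3 with no pairing or the stricter threshold.

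Leaving out a replicate gave 0 to 1 members higher for H3K27me3 in the standard lists, and 0 to 2 for H3K4me3 in both normalizations. The members lower for H3K4me3 ranged from 2 without replicate 2 to 6 without replicate 1 in the spike-in lists, and from 2 to 5 in the standard lists. By H3K4me3 score, 2 to 4 members were higher and 2 to 4 lower. H3K27me3 at the start was found in 1 to 2 members in the GSK126 spike-in lists when a replicate was left out. No share of all genes is given under the alternatives, so these counts describe the members only and do not set them apart from other genes.

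With DMSO, H3K27me3 was found at the start of 5 members in the spike-in lists and 3 in the standard lists. These became 2 with the stricter threshold in the spike-in lists and 5 with every annotated start in the standard lists. With GSK126, the 1 member in the spike-in lists became 2 with 2500 bp, the canonical start or every annotated start, and the 2 members in the standard lists became 4 with every annotated start and 1 with the stricter threshold. The causes of these shifts were not tested. Depth limits the H3K4me3 lists of replicate 2 and the H3K27me3 spike-in lists with GSK126 most.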

Other observations

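H3K27me3 was also examined over a wider list of 46 imprinted genes and neighbours of the members. In the spike-in lists, 20 of 27 genes with an island were lower with GSK126 in both replicates and 0 were higher, compared to 77.4% and 0.356% of all protein-coding genes. In the standard lists 11 of 26 were lower and 2 were higher, compared to 46.8% and 5.64% of all genes. The median change was −2.44 percentage points, compared to −4.14 over all genes. The largest decreases among genes lower in both replicates were at USP29, next to PEG3, which went from 62.1% and 55.4% to 16.9% and 7.40% (−46.6 ± 1.91 percentage points, SD, n = 2), at INS, next to IGF2 (−46.4 ± 0.164), and at ASCL2, a transcription factor of stem and placental cells, which went from 39.6% to 0% in both replicates. The islands of ASCL2 were weak, with summed scores of 19.6 and 22.6, and in the spike-in lists it had none in DMSO replicate 1 and was not called lower. Coverage was higher in both replicates at GNAS (1.91 ± 2.31) and MEG8 (1.34 ± 1.40), by less than the spread. ZIM2, whose window holds that of PEG3, went from 29.8% and 19.7% to 17.6% and 9.09%.

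By summed H3K27me3 score in the standard lists, 8 of 26 genes of the wider list were lower and 11 were higher. Among all genes, 41.0% were lower and 28.6% were higher. The median log2 ratio of the 19 genes with islands in all 4 lists was 0.51, compared to −0.02 over all genes. H19, the non-coding gene next to IGF2, had a score of 637 and 837 with DMSO and 1119 and 2374 with GSK126 (log2 ratio 1.16 ± 0.49). MEG3, the non-coding gene next to DLK1, had 2698 and 3168 with DMSO and 4505 and 8044 with GSK126. ATP10A, on the same chromosome as NDN and SNRPN, was covered over 74.9% and 63.0% with DMSO and 72.3% and 59.6% with GSK126. Genes of a cluster share islands and are not independent.

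For H3K4me3, 8 of 29 genes of the wider list were lower in the standard lists and 3 were higher, compared to 35.5% and 6.81% of all genes. In the spike-in lists 7 of 30 were lower and 1 was higher, compared to 35.0% and 7.95%. Among genes lower in both replicates, ASCL2 had the largest decrease (−26.9 ± 3.46 percentage points), from 80.0% and 68.4% to 55.6% and 39.1%, followed by CD81 (−6.84 ± 7.28) and GNAS (−3.13 ± 0.192). The genes higher in both replicates were NAP1L5, from 30.6% and 25.5% to 35.7% and 30.6%, IGF2R (0.410 ± 0.193) and KCNQ1OT1 (0.287 ± 0.135). At CDKN1C (−21.9 ± 31.0), KLF14 (−9.19 ± 12.99), HYMAI (3.74 ± 5.29) and NNAT (3.26 ± 4.60), the mean changed by more than at some of these genes, but replicate 2 did not differ. By summed H3K4me3 score 11 of 29 were lower and 8 were higher, compared to 22.7% and 27.1% of all genes. MESTIT1 and HYMAI, which overlap MEST and PLAGL1, are measured through the islands described for those genes.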
